A study of Homo sapiens with 7 samples.

Results

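Super-enhancers (SEs) whose nearest annotated gene is a microRNA were examined in HepG2 cells under endoplasmic reticulum stress (ERS). A member is any listed SE whose linked gene name starts with MIR and a digit or with MIRLET, with 2 names (MIR3920 and MIR5692B) left out. They numbered 518 of the 7472 SEs listed over 6 H3K27ac libraries and carried 138 names, 7 of which are host genes (names ending in HG) and not microRNAs. SEs of different libraries that shared at least 1 bp were joined into 1784 merged regions, of which 149 held a microRNA-linked SE in at least 1 library.

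Acetylation of lysine 27 on histone H3 (H3K27ac), a mark of active enhancers and promoters, was profiled by ChIP-seq in HepG2, a human liver cancer cell line. The TM group (TM 1 to TM 3) was treated with tunicamycin, which blocks N-linked glycosylation and so causes ERS, and the DMSO group (DMSO 1 to DMSO 3) with the solvent. The dose and duration for these libraries are not stated in the labels, both groups are the same unmodified line, and an input library was not analysed here. Nothing in the labels says that the replicates came from separate cultures, and a p-value here speaks only of the spread among these libraries, which may be technical.

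Each list holds stitched clusters of H3K27ac peaks above a threshold of that library, with a position, a summed signal and the gene whose transcription start site (TSS) lies nearest to the midpoint. Density is the summed signal per bp. Read totals are unknown, and an unlisted region may still carry signal below the threshold. The lowest listed signal was 18282, 26265 and 18884 in TM 1 to TM 3, against 24793, 16747 and 24383 in DMSO 1 to DMSO 3. TM 2 stood apart with 1507 listed SEs, against 1130 to 1290 in the other 5 libraries.

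MicroRNAs are short RNAs cut from hairpin precursors by the nucleases Drosha and Dicer and loaded into Argonaute proteins. Bases 2 to 8 of the mature strand, the seed, pair with target messenger RNAs and lower their translation or stability. Many hairpins lie in introns of a host gene and are transcribed with it, while others have a promoter of their own. The linked TSS of a microRNA is the start of its hairpin record, which need not be such a promoter. In liver cells microRNAs take part in differentiation, lipid metabolism and tumour growth.

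The mature sequences of the microRNAs on which the results turn are given here from RefSeq (GRCh38.p14), with the seed in capitals. The set of mature sequences used here covered 119 of the 138 names. The other names were not compared, and this count is no measure of what RefSeq holds. The microRNAs of cancer or liver biology linked to an SE in all 6 libraries were these, and let-7c and let-7i share the seed GAGGUAG and 18 of 22 bases.
miR-21-5p: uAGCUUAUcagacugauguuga
miR-23a-3p: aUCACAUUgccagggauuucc
let-7c-5p: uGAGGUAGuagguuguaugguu
let-7i-5p: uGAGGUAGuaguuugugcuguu
miR-30a-5p: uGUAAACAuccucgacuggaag

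The next microRNAs had a linked SE in every TM library (3 of 3) and in 0 of 3 DMSO libraries. MiR-573 has the seed UGAAGUG, as has miR-3616-5p, which was linked in TM 2 only.
miR-365a-3p: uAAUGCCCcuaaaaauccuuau
miR-938: uGCCCUUAaaggugaacccagu
miR-619-3p: gACCUGGAcauguuugugcccagu
miR-573: cUGAAGUGauguguaacugaucag
miR-3616-5p: aUGAAGUGcacucaugauaugu
miR-6070: cCGGUUCCagucccuggag
miR-183-5p: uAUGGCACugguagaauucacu

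The following were linked in 3 of 3 DMSO libraries and in 0 of 3 TM libraries, shown to set their seeds beside those above. Of 169 distinct seeds in this set, 6 were shared by at least 2 names. None of the 6 joined a name linked in TM libraries alone with one linked in DMSO libraries alone. Some of the 6 belong only to the copies MIR3680-1 and MIR3680-2 or MIR4771-1 and MIR4771-2. These copies were linked in TM libraries alone, so their seeds could not join the groups. Names without a sequence in the set were not compared.
miR-3126-5p: uGAGGGACagaugccagaagca
miR-3126-3p: cAUCUGGCauccgucacacaga
miR-3170: cUGGGGUUcugagacagacagu
miR-5092: aAUCCACGcugagcuuggcauc
miR-4795-5p: aGAAGUGGcuaauaauauuga
miR-5093: aGGAAAUGaggcuggcuaggagc

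MicroRNA-linked SEs formed a slightly larger share of the TM lists, and this gap narrowed when distant or uncertain links were left out. There were 81, 108 and 91 in TM 1 to TM 3, against 81, 80 and 77 in DMSO 1 to DMSO 3. The means were 93.3 ± 13.7 in TM, against 79.3 ± 2.08 in DMSO (SD, n = 3 each, exact permutation test, two-sided, p = 0.2, where 3 against 3 cannot go below 0.1). Without TM 2 the difference of 14 SEs became 6.67. As a share of each list they made up 7.20 ± 0.055% in TM, against 6.67 ± 0.478% in DMSO (exact permutation p = 0.1), and every TM library was above every DMSO library. The difference of 0.534 percentage points was 0.302 without DMSO 2. It was 0.0266 (exact permutation p = 0.7) when SEs farther than 100 kb from the linked TSS were left out. It was 0.0793 (exact permutation p = 0.9) when 10 names were left out. These share a mature sequence with another linked name or are listed on another chromosome than in GRCh38. The share of all listed signal was 7.78 ± 0.194% in TM, against 6.83 ± 0.124% in DMSO (exact permutation p = 0.1).

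MicroRNA-linked SEs were shorter and denser in TM. Their median length was 40.8, 46.4 and 39.6 kb in TM 1 to TM 3, against 57.7, 48.2 and 61.2 kb in DMSO 1 to DMSO 3. The difference of the means was -13.4 kb, and the groups did not overlap (exact permutation p = 0.1). Median density was 0.774, 1.04 and 0.833 per bp in TM 1 to TM 3, against 0.764, 0.613 and 0.705 per bp in DMSO 1 to DMSO 3 (exact permutation p = 0.1), where TM 1 lay just above DMSO 1. The difference of 0.189 per bp was 0.109 without TM 2.

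The remaining SEs of the same lists had the same pattern with a wider gap. Their medians averaged 40.9 ± 2.99 kb for TM, against 59.5 ± 7.79 kb for DMSO (SD, n = 3 each). Within a library, the median of the microRNA-linked SEs minus that of the others was 1.399 ± 1.33 kb in TM, against -3.79 ± 1.11 kb in DMSO (exact permutation p = 0.1). The same difference for density was -0.0357 ± 0.0317 per bp in TM, against 0.0406 ± 0.0178 per bp in DMSO (exact permutation p = 0.1). The peaks joined per microRNA-linked SE numbered 8.33 ± 1.15 in TM, against 13.8 ± 1.04 in DMSO (mean of library medians, exact permutation p = 0.1).

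**Figure D1:**
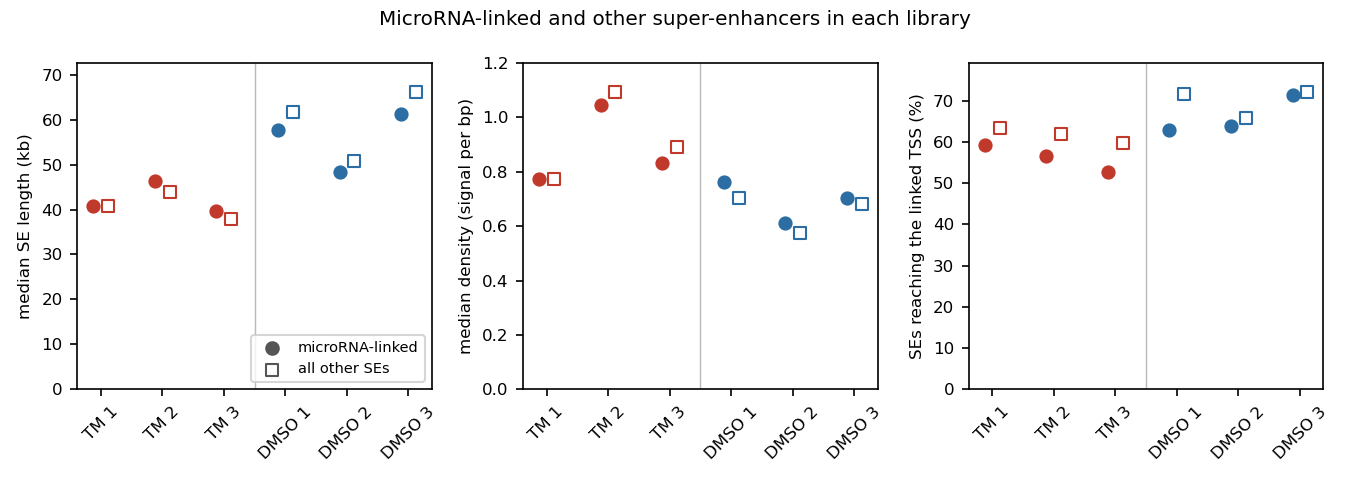
Median length in kb, median density in signal per bp, and the percentage of SEs that reach the linked TSS, for microRNA-linked SEs (filled circles) and all other SEs (open squares) in each of the 3 TM (red) and 3 DMSO (blue) libraries. Both kinds of SE were shorter in every TM library than in every DMSO library. MicroRNA-linked SEs reached the linked TSS, mostly a hairpin start, less often than the others in all 6 libraries.

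The distance between an SE and its microRNA overlapped between the treatments. Midpoint and linked TSS lay a median of 23.97 ± 2.68 kb apart in TM, against 23.1 ± 4.19 kb in DMSO (SD, n = 3 each, exact permutation p = 0.8). The SE reached the linked TSS in 56.2 ± 3.27% of cases in TM, against 66.1 ± 4.68% in DMSO (exact permutation p = 0.1). In each of the 6 libraries this share was lower for microRNA-linked SEs than for the others. The mean difference was -4.65 percentage points (exact paired permutation test over 6 libraries, p = 0.03125, the smallest it can give). The libraries are of the same line, and 69 of the 149 merged regions with a microRNA-linked SE were called in all 6. The libraries therefore read many of the same SEs again. This p does not measure the uncertainty of the difference over SEs. Over all libraries, 83.6% of microRNA-linked SEs lay within 100 kb of the linked TSS, against 88.3% of the others. For a microRNA the linked TSS is a hairpin start, and for most of the others it is the start of a gene. These shares are therefore not taken to like points. The link is by distance alone, and whether an SE acts on the microRNA was not tested.

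Of the 518 microRNA-linked SEs, 294 had the midpoint in an intron. Intronic midpoints made up 54.2 ± 4.95% in TM, against 59.3 ± 2.81% in DMSO (exact permutation p = 0.3). For 73 names the intron belonged to another gene. For 62 of these the microRNA itself lies inside the span of that gene in GRCh38, so the SE midpoint lay within a host gene. Strand was not compared, so a host in this sense need not be transcribed with the microRNA. Of 131 names that are not host genes, 3 (MIR1268A, MIR3134 and MIR5009) had the midpoint in an intron of the microRNA record itself, although a hairpin has no intron. In all, 6 of 137 names matched by Entrez ID were listed on another chromosome than in GRCh38, in full or in part (MIR1268A, MIR3134, MIR3654, MIR5009, MIR548AV and MIR548G). Their links and those of the copies MIR4771-1 and MIR4771-2, MIR3680-1 and MIR3680-2 are uncertain.

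By name, 14 of the 138 (10.1%) were linked in 3 of 3 TM and 0 of 3 DMSO libraries, against 6.94% of all linked gene names. In the opposite direction there were 7 (5.07%), against 4.7% of all names. Another 31 (22.5%) were linked in all 6 libraries, against 26.1% of all names. The names linked in TM alone were MIR1207, MIR1268A, MIR183, MIR3134, MIR365A, MIR4293, MIR4714, MIR5580, MIR573, MIR6070, MIR619, MIR6888, MIR8056 and MIR938. Those linked in DMSO alone were MIR3126, MIR3163, MIR3170, MIR4795, MIR5092, MIR5093 and MIR548AV.

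**Figure D2:**
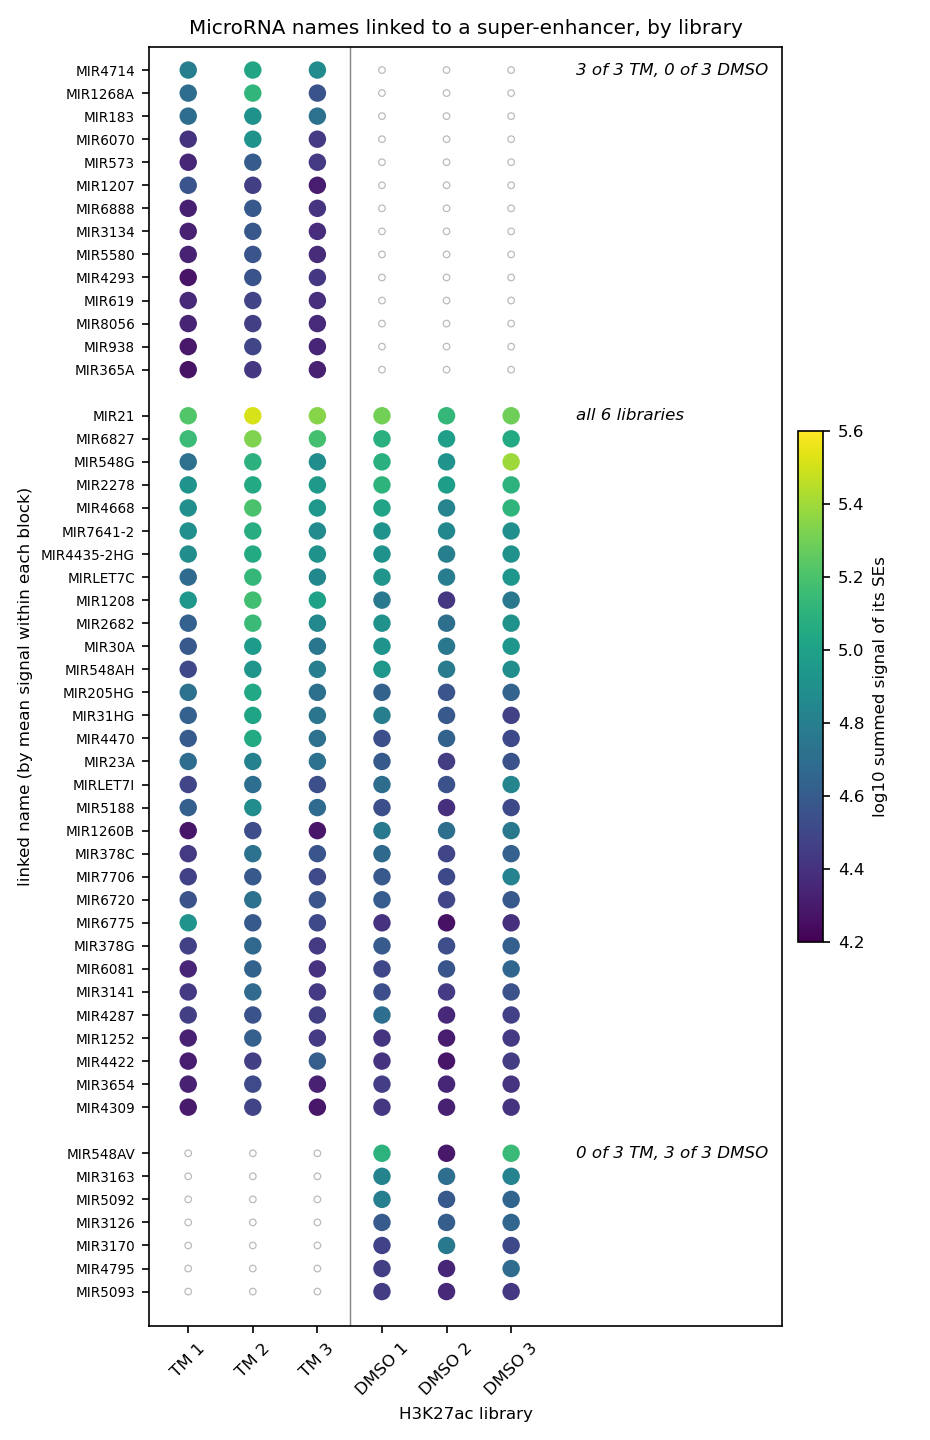
Names linked to an SE in one treatment group alone or in all 6 libraries (rows) in each library (columns, TM left of DMSO). Filled circles are coloured by the log10 summed signal of the SEs with that name, and small open circles mark libraries where no SE carried the name. MIR21 has the highest mean signal (207570) of the 31 names linked in all 6 libraries.

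A name linked in one group alone did not always mean an SE called in one group alone. Of the 14 TM names, 8 lay in merged regions that no DMSO library called. The SEs named MIR1207, MIR183, MIR3134 and MIR4714 lay in regions called in all 6 libraries, and those named MIR5580 and MIR6888 in regions that 1 DMSO library called. MIR183, of a cluster known from sensory organs, showed this. Its SE lay in UBE2H, a ubiquitin-conjugating enzyme gene, with midpoints at -81.6 to -85.9 kb. The merged region was called in DMSO under the name UBE2H, and its summed signal was 71051, 113970 and 75574 in TM 1 to TM 3, against 93246, 66495 and 95382 in DMSO 1 to DMSO 3. The groups overlapped, and the change in centred density of 0.12 ± 0.10 (log2, SE) did not pass the test (limma adjusted p = 0.443). MIR4714 lies inside the growth factor receptor gene IGF1R. The listed length of its region was 60.3, 74.3 and 64.9 kb in TM 1 to TM 3, against 112, 105 and 115 kb in DMSO 1 to DMSO 3, and the groups did not overlap.

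By merged region, 15 of 149 (10.1%) were called in every TM and in no DMSO library, against 7.57% of all merged regions. Regions over a host gene among them were these, with positions as deposited, for which the sources used here settle no genome build. MIR365A, whose mature strand is listed above, lies in MIR193BHG, a non-coding host gene. Its SE (chromosome 16, 14394617 to 14420582, intron 1) had a signal of 18479, 26424 and 21379 in TM 1 to TM 3, close to the TM thresholds. It ranked between 83.6% and 99.2% of the way down the TM lists. MIR619 lies in SSH1, a phosphatase gene of actin turnover (chromosome 12, 109218586 to 109252187, intron 2), with 22788, 30398 and 24589 in TM 1 to TM 3. MIR938 lies in SVIL, which encodes the actin-binding protein supervillin (chromosome 10, 29877552 to 29925902, intron 3), with 19517, 31274 and 22263. TM 2, the library with the highest threshold, was highest for each of these.

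The strongest regions called in TM alone were those of MIR6070, of MIR1268A and of the MIR4771 copies, and the names of the last 3 are uncertain. The region of MIR6070, in HSF2BP, a gene of meiotic recombination, had 25267, 80884 and 49275 in TM 1 to TM 3 (chromosome 21, 45001650 to 45088123). A pair of chromosome 2 regions named by the copies MIR4771-1 and MIR4771-2 had 38899, 45395 and 34017 (112447840 to 112504126) and 32587, 46748 and 32176 (87536586 to 87585790). MIR1268A had 31102, 51767 and 36083 (chromosome 15, 22466446 to 22494388). The intergenic regions of MIR573, MIR4293 and MIR8056 had mean signals of 29931, 27068 and 24613, with midpoints 194, -16.3 and 108 kb from the TSS on average. The other regions of this kind were named MIR4422, MIR3164, MIR3680-1 and MIR3680-2, MIR330 and MIR3936, with mean signals of 22869 to 31328.

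By merged region, 7 of 149 (4.70%) were called in every DMSO and in no TM library, against 5.44% of all merged regions. They were long and of low density, with medians of 64.5 kb of listed length and 0.507 per bp, while the 15 regions called in TM alone had medians of 30.1 kb and 0.939 per bp. Over all regions of each kind the medians were 29.5 kb and 0.979 per bp for those called in TM alone, and 55.6 kb and 0.555 per bp for those called in DMSO alone. MIR3126 lies in ANTXR1, an anthrax toxin receptor gene (chromosome 2, 69339692 to 69460329), with 39320, 41043 and 45448 in DMSO 1 to DMSO 3. MIR5092 lies in SLC12A8, a solute carrier gene (chromosome 3, 124771210 to 124886459), with 62488, 38705 and 44939. MIR3170 lies in FARP1 (chromosome 13, 98809614 to 98965486), with 29801, 58452 and 32483. A region named MIR1260B in MAML2, a Notch coactivator gene, had 29954, 29548 and 31930, and those of MIR4795, MIR5094 and MIR5093 had mean signals of 33476, 30933 and 25910.

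Whether a region missing from the other group must have had less signal depends on the thresholds. The lowest signal of a calling library was therefore divided by the highest of the thresholds in the libraries of the other treatment. This ratio was above 1 for 6 of the 15 regions called in TM alone with signals as deposited, for 3 after scaling each library by its median density over shared regions, and for 9 after scaling by the median summed signal. It was above 1 on all 3 scales for 3 regions, that of MIR1268A and the pair named MIR4771-1 and MIR4771-2. Of the 7 regions called in DMSO alone it was above 1 for 4, 7 and 7 on these scales, and on all 3 for MIR1260B, MIR3126, MIR3170 and MIR5092. With one stricter threshold for all libraries, 4 of 134 regions were called in TM alone and 4 in DMSO alone, against 2.94% and 2.63% of all merged regions.

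**Figure D3:**
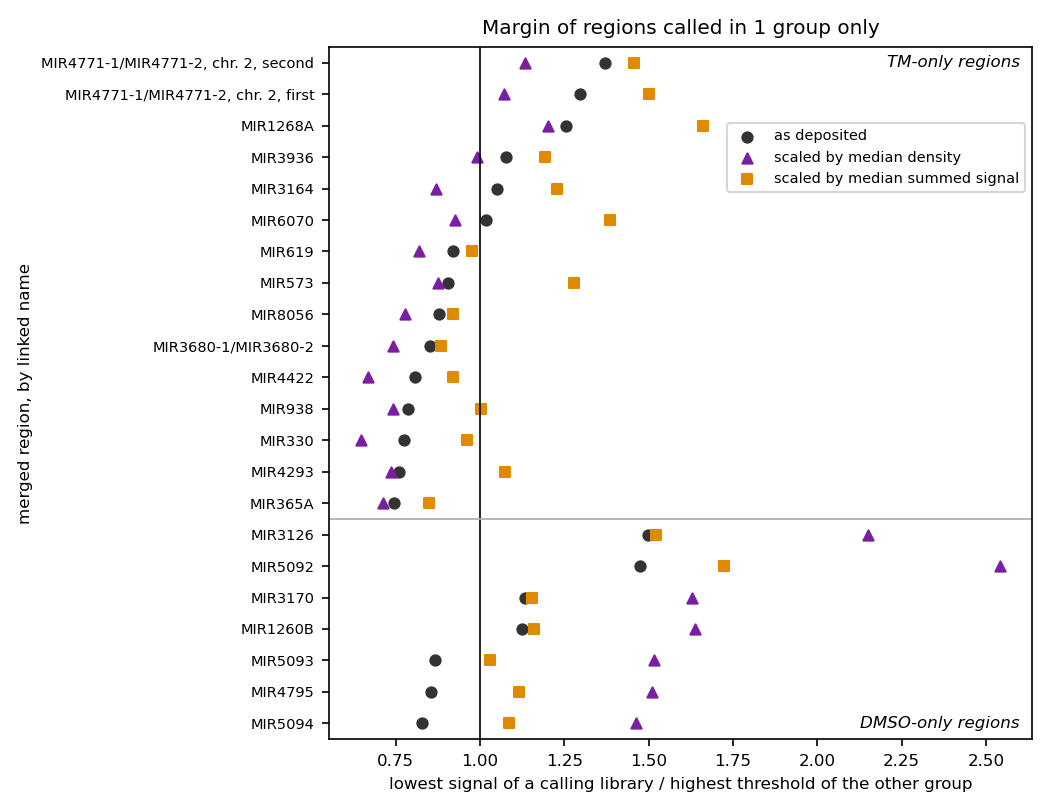
For each merged region called in TM alone (upper block) or DMSO alone (lower block), the lowest signal among the calling libraries divided by the highest threshold among libraries of the other treatment, on 3 scales. The vertical line marks 1, and MIR365A lies left of it on every scale (0.745 as deposited), while MIR3126 and MIR5092 lie right of it on every scale (1.497 and 1.474 as deposited).

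MIR21, the microRNA found raised in many cancers, had one of the strongest SEs of these cells. Its SE (chromosome 17, 57822846 to 57943366) covered the start of the MIR21 hairpin in all 6 libraries. The midpoint lay in intron 7 of the 11 introns of VMP1, an autophagy gene. The signal was 166890, 326140 and 221180 in TM 1 to TM 3, against 199320, 135700 and 196170 in DMSO 1 to DMSO 3, so the groups overlapped on the deposited scale. By rank within its list it was number 10, 2 and 4 in TM 1 to TM 3, against 21, 21 and 25 in DMSO 1 to DMSO 3. The lists differ in length (1130 to 1507 SEs), and as a share of its list this was 0.885, 0.133 and 0.319% from the top in TM 1 to TM 3, against 1.86, 1.63 and 2.16% in DMSO 1 to DMSO 3. These ranks are a description with no test. The listed length was about equal, at 119, 118 and 119 kb in TM 1 to TM 3, against 114, 119 and 114 kb in DMSO 1 to DMSO 3. Relative to the median of shared regions, its summed signal was 0.40 ± 0.07 higher in TM (log2, SE, limma adjusted p = 0.00685), but its density differed by -0.03 ± 0.17 (limma adjusted p = 0.925). Over 11 alternative settings of the density test the adjusted p lay between 0.00685 and 1, and the summed signal was the 1 setting past the threshold.

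MIR23A, the leading member of a cluster with MIR27A and MIR24-2, had an intergenic SE that also covered its hairpin start (chromosome 19, 13943926 to 13977596). The signal was 49766, 64426 and 52459 in TM 1 to TM 3, against 38774, 27953 and 36210 in DMSO 1 to DMSO 3. Every TM library was above every DMSO library, at a listed length of 32.5 to 33.3 kb in all 6. Its centred density was 0.33 ± 0.13 higher (limma adjusted p = 0.0991), short of the threshold, and its centred summed signal 0.71 ± 0.14 higher (limma adjusted p = 0.011). Over 11 alternatives to the density test its adjusted p lay between 0.011 and 0.28, and the summed signal was the 1 past the threshold. It stood 18.2, 25.2 and 18.2% from the top of its list in TM 1 to TM 3, against 52.7, 47.7 and 59.1% in DMSO 1 to DMSO 3.

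The let-7 family, which lowers RAS and HMGA2 and is regarded as tumour suppressive, had SEs at MIRLET7C and MIRLET7I. MIRLET7C lies in the host gene MIR99AHG (chromosome 21, 17876313 to 17977397). Its region had 48452, 135110 and 71074 in TM 1 to TM 3, against 85656, 61056 and 86665 in DMSO 1 to DMSO 3, and the groups overlapped. The centred density differed by -0.46 ± 0.21 (limma adjusted p = 0.154). The SEs linked to MIRLET7I lay 109 to 145 kb from it, in introns of the phosphatase gene PPM1H. The merged region (chromosome 12, 63082158 to 63200882) had 30991, 49944 and 34399 in TM 1 to TM 3, against 49576, 53157 and 68974 in DMSO 1 to DMSO 3. Its listed length was 37.2, 42.6 and 36.5 kb in TM 1 to TM 3, against 57.7, 94.1 and 103 kb in DMSO 1 to DMSO 3. Its centred summed signal fell by 0.58 on the log2 scale (SE 0.163, limma adjusted p = 0.0349), while its centred density was 0.12 ± 0.12 higher (limma adjusted p = 0.496). Over 11 alternatives to the density test its adjusted p lay between 0.0349 and 0.787.

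**Figure D4:**
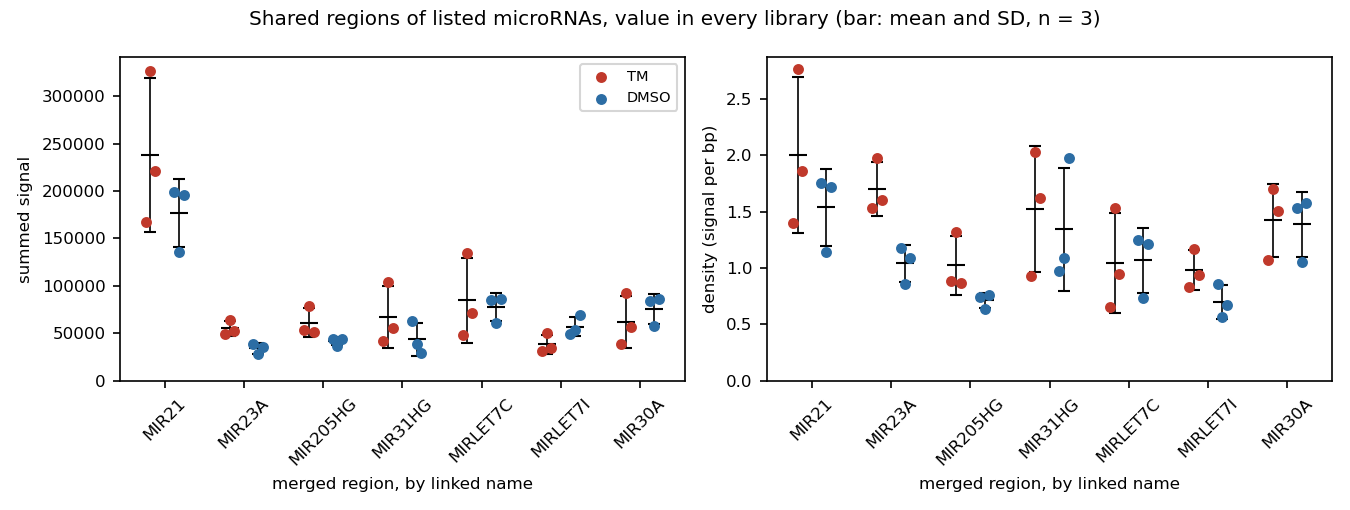
Summed signal (left) and density in signal per bp (right) for 7 shared regions linked to microRNAs of cancer or liver biology, with each of 3 TM (red, left) and 3 DMSO (blue, right) libraries as a point and the mean and SD as a bar. At MIR23A every TM point lies above every DMSO point in signal, at MIR21, MIRLET7C and MIR30A the points overlap, and TM 2 is the highest TM point in each signal series.

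Lists of microRNAs were set beside these links. Of 26 oncogenic microRNAs and hosts, 4 were linked, and 3 of them in all 6 libraries (MIR21, MIR23A and MIR31HG, the host of miR-31), while MIR181A2HG was linked in 2 TM and 3 DMSO libraries. Of 35 tumour suppressor and EMT microRNAs and hosts, 5 were linked. MIRLET7C, MIRLET7I and MIR205HG (host of miR-205, which represses ZEB1) were linked in all 6, MIR100HG in 2 TM and 2 DMSO libraries and MIR99AHG in 2 TM and 3 DMSO libraries. None of these was linked by name in one treatment group alone. MIR193BHG, also on the second list, was not linked by name. The SE linked to MIR365A, called in TM alone, lay in its intron 1. The MIR205HG region had 53578, 78546 and 51475 in TM 1 to TM 3, against 43640, 37147 and 44428 in DMSO 1 to DMSO 3, without overlap. Its centred density differed by 0.11 ± 0.12 (limma adjusted p = 0.54), while its centred summed signal was 0.538 higher (log2, limma adjusted p = 0.0191). The SEs named MIR205HG were intergenic, with midpoints at -385 to -43.9 kb, and 0 of 7 reached the linked TSS. Those named MIR100HG had midpoints at -226 to -218 kb.

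Of 12 hepatocyte microRNAs, 2 were linked. MIR30A had 38431, 92387 and 56290 in TM 1 to TM 3, against 83690, 57417 and 86027 in DMSO 1 to DMSO 3, with overlap, and its centred density differed by -0.35 ± 0.15 (limma adjusted p = 0.13). MIR148A was linked in 2 TM and 2 DMSO libraries, with midpoints 103 to 170 kb away. Of 16 microRNAs of the unfolded protein response 0 were linked by name, as were 0 of 10 microRNAs typical of other cell types. An SE carries the nearest name only, so a listed microRNA beside another linked name is not counted. Among 23 genes of microRNA processing and function, AGO2, which encodes the slicing Argonaute, was linked in all 6 libraries and PARN in 1 DMSO library. Of 20 hepatocyte genes used to check the line, 4 were linked (FOXA1, ONECUT2, CPS1 and TM4SF4) and ALB, AFP and APOA1 were not, while 2 of 6 fibroblast, 0 of 4 endothelial and 1 of 3 blood genes were. Some of these links differed in number by treatment. Of the hepatocyte genes, TM4SF4 was linked in 0 TM and 3 DMSO libraries, FOXA1 in 0 TM and 2 DMSO libraries, and ONECUT2 and CPS1 in all 6. Of the fibroblast genes, LUM was linked in 0 TM and 3 DMSO libraries (25687 to 36983) and PDGFRB in 1 TM library (28174) and 3 DMSO libraries (24929 to 33115). The blood gene PTPRC was linked in 2 TM libraries (20041 and 32044) and 0 DMSO libraries. A nearest-gene link is no measure of expression, and the part of other cells in these values was not tested.

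The 31 names linked in all 6 libraries included strong SEs besides MIR21. MIR6827 had an intergenic SE of 141870, 214140 and 152520 in TM 1 to TM 3, against 122860, 95440 and 112330 in DMSO 1 to DMSO 3, with no overlap between the groups. It stood 1.15, 1.39 and 0.958% from the top of its list in TM 1 to TM 3, against 7.16, 4.88 and 10.1% in DMSO 1 to DMSO 3. By mean signal of a name, MIR4762 in the ataxin gene ATXN10 (234500, linked in TM 1 and TM 2 only), MIR21 (207570), MIR5689HG (186600, TM 3 only), MIR583 (172850, 3 TM and 2 DMSO libraries) and MIR6827 (139860) led. The regions of MIR4762, MIR5689HG and MIR583 were called in all 6 libraries, under other gene names where the microRNA was not the nearest. In SLC7A5, an amino acid transporter gene, MIR6775 had a merged region of 82711, 96797 and 78342 in TM 1 to TM 3, against 56267, 43203 and 55911 in DMSO 1 to DMSO 3, again without overlap.

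The other names linked throughout were MIR1208, MIR1252, MIR1260B, MIR2278, MIR2682 (in MIR137HG, the host of miR-137), MIR3141, MIR3654, MIR378C, MIR378G, MIR4287, MIR4309, MIR4422, MIR4435-2HG, MIR4470, MIR4668, MIR5188, MIR548AH, MIR548G, MIR6081, MIR6720, MIR7641-2 and MIR7706. Their mean signals lay between 23754 (MIR4309) and 118000 (MIR548G). The SEs named MIR548G, a link listed above as uncertain, had their midpoints in FILIP1L. Its merged region was listed over 54.9, 155 and 126 kb in TM 1 to TM 3, against 294, 258 and 351 kb in DMSO 1 to DMSO 3. Its centred density differed by 0.37 ± 0.16 (limma adjusted p = 0.151).

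Of the 149 merged regions, 69 (46.3%) were called in all 6 libraries, against 37.6% of all merged regions, and 31 of these carried a microRNA name in every library. Every TM library listed a shorter extent than every DMSO library in 22 of the 69 (31.9%), against 36.6% of all shared regions. Density was tested with limma on log2 values after subtracting the library median of the 670 shared regions, since uncentred density was 0.38 higher in TM at the median. At an adjusted p under 0.05, 8 of the 69 regions (11.6%) were called, against 17.3% of all shared regions. The split was 1 higher (6.72% of all) and 7 lower (10.6% of all). The median change was -0.06 over the 69 and -0.03 over all. The centred densities of the 2 groups did not overlap in 25 of the 69 (36.2%), against 38.2% of all. Without centring, 9 of the 69 were called, all of them higher, against 19.9% of all higher.

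The region of MIR4257, over the matrix gene ADAMTSL4, was the most stable of these calls. Its centred log2 density was -0.28, -0.54 and -0.48 in TM 1 to TM 3, against 0.19, 0.12 and 0.10 in DMSO 1 to DMSO 3, with no overlap. The fall of 0.57 (SE 0.105, limma adjusted p = 0.00943) stayed past the threshold in 9 of 11 alternatives. It did not without centring or on the summed signal, where it was -0.05 (limma adjusted p over the alternatives 0.00826 to 0.724). MIR5197, near the glucocorticoid receptor gene NR3C1, had -0.54, -0.77 and -1.04 in TM 1 to TM 3, against -0.16, -0.31 and -0.14 in DMSO 1 to DMSO 3 (fall of 0.58, SE 0.131, limma adjusted p = 0.02). The region of MIR4797, in the scaffold gene DLG1, was the call in the other direction, with 0.16, -0.27 and 0.32 in TM 1 to TM 3, against -0.52, -0.43 and -0.37 in DMSO 1 to DMSO 3 (0.51 higher, SE 0.149, limma adjusted p = 0.0465). Its listed length was 27.8, 69.6 and 23.3 kb in TM 1 to TM 3, against 68.4, 64.9 and 65.4 kb in DMSO 1 to DMSO 3, and its centred summed signal differed by 0.004 ± 0.179.

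The remaining calls were lower density at MIR550B1 (-0.54), a MIR1260B region (-0.46), MIR4645 (-0.43), MIR4785 (-0.36) and MIR544B (-0.30), with limma adjusted p between 0.0307 and 0.0482. Most of the called regions carried the microRNA name in part of the libraries only. MIR544B was given in 1 TM and 0 DMSO libraries, with the midpoint in ITGB5. The TM and DMSO numbers were 1 and 2 for MIR5197, 1 and 3 for MIR4797, and 2 and 2 for MIR550B1. They were 3 and 1 for MIR4785, and 2 and 3 for MIR4645 and for MIR4257. Without centring MIR4785 and MIR544B were at 0.02 and 0.09, and MIR4645 was 0.22 higher on the summed signal. The number of calls depended on single libraries. Without TM 1, TM 2, TM 3, DMSO 1, DMSO 2 or DMSO 3 the count was 12, 11, 3, 1, 4 and 1, against 17.7, 21.2, 11.3, 7.55, 8.58 and 8.14% of all shared regions, and 1 of the 8 (MIR4257) stayed past the threshold each time.

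On the centred summed signal, limma called 21 of the 69 regions (30.4%), against 32.4% of all shared regions, with 14 higher (18.7% of all) and 7 lower (13.7% of all). The largest rises among the called regions were at a region over or beside the non-coding gene PVT1, near MYC, whose SEs were named MIR1207 or MIR1208 (1.29), at MIR3188 and MIR3189 by GDF15, a cytokine gene of the stress response (1.04), and at MIR5188 (0.84). The MIR3188 and MIR3189 region had 82186, 106420 and 74926 in TM 1 to TM 3, against 46690, 36946 and 44346 in DMSO 1 to DMSO 3. Every TM library was above every DMSO library, and the listed length was also greater, at 114, 133 and 83.9 kb in TM 1 to TM 3, against 68.1, 70.5 and 67.9 kb in DMSO 1 to DMSO 3. Its centred density differed by -0.002 ± 0.124 (limma adjusted p = 0.996). The microRNA names at this region were given in TM 2 and TM 3 only. The largest falls among the called regions on this scale were at MIR548G (-0.79), MIRLET7I (-0.58) and MIR3163 (-0.53), which lies in PC, the pyruvate carboxylase gene. The MIR3163 region was listed over 49.6, 50.4 and 49.7 kb in TM 1 to TM 3, against 99.9, 98.4 and 104 kb in DMSO 1 to DMSO 3.

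**Figure D5:**
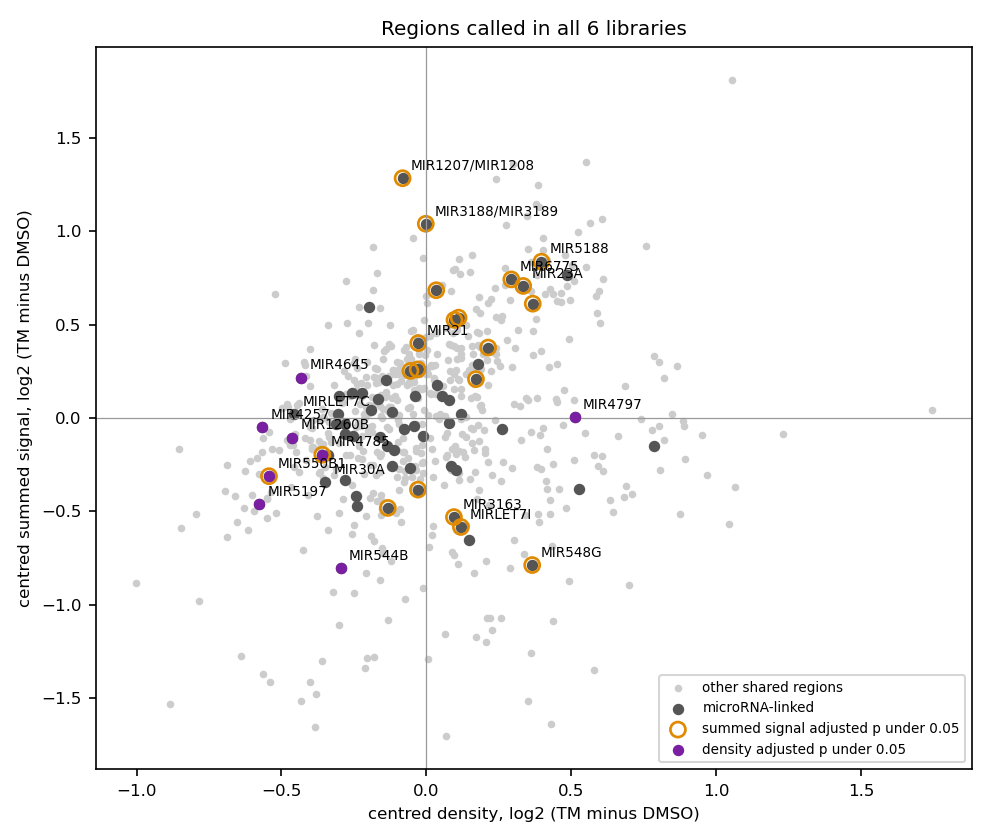
Change in centred density (horizontal axis) against change in centred summed signal (vertical axis), both as log2 of TM minus DMSO, for the 670 regions called in all 6 libraries, with the 69 microRNA-linked ones in dark grey. Purple points passed the density test (8 regions) and orange rings the summed signal test (21 regions), and MIR4785 and MIR550B1 passed both.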

How the data were processed

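H3K27ac ChIP-seq of HepG2 cells was made by the authors in 3 TM and 3 DMSO libraries, grouped by the treatment in the labels. CASAVA 1.4 and the builds mm9 and hg38 stand in the submitters' processing notes, with no role. No source used here gives the peak caller settings, stitching or scaling. The deposited signal is a density in steps of 0.0001 per bp times the length of the SE, and only SEs above a library threshold are listed. The linked TSS positions implied by the tables fell within 5 kb of a GRCh38 end for 37 of 483 SEs, so coordinates are printed as deposited, without a build.

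SEs sharing 1 bp were merged. Density of shared regions was tested with limma 3.58.1 (trend, R 4.3.3, Benjamini-Hochberg over 670 regions), and library values by exact permutation (scipy 1.17.1). In simulated data from these 670 regions, 70.0% of changes of 0.5, 96.0% of changes of 1.0 (log2) and 0.851% of unchanged regions were called. The simulated noise was independent between regions and libraries, so these rates need not hold for the data. Symbols and sequences came from RefSeq (GRCh38.p14). Mature sequences on chromosome 8 were left out of the sequence set, those of MIR1204, MIR1207, MIR1208, MIR378D2, MIR4287 and MIR4470. The set also held none for some names on other chromosomes. Their seeds were not compared, which includes that of MIR1207, a name linked in TM alone. The microRNA-linked SEs and the 10 lists were chosen with earlier results of these data known. Named are members linked in 1 group alone or in all 6 libraries, those past the limma threshold, those on a list and the 5 strongest; regions called in 1 group alone and those named on the summed signal were chosen after their values were seen.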

Additional observations from a re-analysis of the deposited data

How the results depend on the processing

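The differences between TM and DMSO in number, share, median length and median density kept their direction when each library was left out, under a common stricter threshold, within 100 kb of the TSS and without host gene names; no p could fall below 0.1. Within 100 kb of the TSS the share difference shrank to 0.0266 percentage points (exact permutation p = 0.7) and the number difference to 6.33 SEs (exact permutation p = 0.5). The difference in median distance changed sign, at -2.96 kb within 100 kb of the TSS and between -1.21 and 2.98 kb when single libraries were left out. Regions called in TM alone numbered 4, and in DMSO alone 4, under the common threshold, against 2.94% and 2.63% of all regions. The cause of these lower counts was not tested. When single libraries were left out such regions numbered 15 to 17 and 7 to 10, against 7.98 to 11.5% and 5.76 to 9.23% of all. Names that share a mature sequence with another linked name, or are listed on another chromosome than in GRCh38, were chosen after seeing the data. Leaving them out gave 11 and 7 of 137, against 7.57% and 5.44% of all. The density test called 21 regions on the summed signal (32.4% of all) and 18 of 86 when 2 libraries per group sufficed (18.6% of all), 9 without centring (each higher, against 19.9% of all), 7 when merging needed 50% overlap (0 of them higher, 16.6% of all called), and 1 to 12 when single libraries were left out (7.55 to 21.2% of all). With the call made in one of both fits, signs turned on the summed signal at MIR21 (0.40), MIRLET7I (-0.58), MIR3188 and MIR3189 (1.04) and MIR4645 (0.22), and without centring at MIR4785 (0.022) and MIR544B (0.086). With no call in either fit, signs also turned on the summed signal at MIR31HG (0.60), MIR2682 (0.12) and MIRLET7C (0.02), and without centring at MIR21 (0.35), MIR2682 (0.34), MIR31HG (0.18), MIR30A (0.03) and MIR3188 and MIR3189 (0.38). When single libraries were left out they turned at MIR21, MIRLET7I, MIR2682, MIR31HG and MIR3188 and MIR3189, with no call in those fits; the cause was not tested.

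Same-numbered TM and DMSO libraries did not deviate together (correlations -0.008, -0.047 and -0.026 over 670 regions). The labels do not say whether such libraries were made together, and these correlations cannot settle it. With the replicate block, 6 of the 69 regions were called (3 higher, 3 lower, against 14.2% of all shared regions called), and 4 of the 8 calls were lost. An exact permutation within pairs gave p = 0.5 for the number of SEs, 0.25 for share, length and density, and 0.75 for distance. Read depth is unknown and limits how far unlisted regions can be read.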

Other observations

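The other 86 names were linked in part of the libraries. Of these, 36 occurred in 1 or 2 TM libraries and no DMSO library, 14 in 1 or 2 DMSO libraries and no TM library, and 36 in both groups. Their mean signals ran from 18556 to 234500, from 17764 to 123310 and from 22395 to 172850 in that order. Among those in both groups, MIR3128, in NFE2L2, the gene of a regulator of the oxidative stress response, had 46527, 111970 and 56024 in TM 1 to TM 3, against 73338 in DMSO 3, the 1 DMSO library with the name. MIR138-2, whose SEs had their midpoints in the nuclear pore gene NUP93, had 76166, 122050 and 83332 in TM 1 to TM 3, against 99290 and 73151 in DMSO 1 and DMSO 2. MIR1343, in PDHX, a gene of the pyruvate dehydrogenase complex, had 53397 and 31192 in TM 2 and TM 3, against 80898, 60550 and 92864 in DMSO 1 to DMSO 3. These 3 were chosen after their values were seen, and no test was made on them.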
